A study of Mus musculus with 6 samples.

Results

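Pax2, Pax8, Osr1, Lhx1, Sall1, Wt1, Gata3 and Eya1 are transcription regulators of the intermediate mesoderm and of the nephric structures that form from it. These 8 genes were taken by name from the 19342 gene names of a table of read counts, and all 8 were found there. The table came from mesoderm progenitor cells of C57BL/6 mouse embryos, sequenced as total RNA in 6 libraries, 1 per condition. Untreated cells were sampled at 0 h and after 96 h in culture. The other 4 libraries came from cells grown for 96 h and then given growth factors: rhBMP4 with rhFGF8 for 5 h and rhBMP4 alone for 5 h (both 101 h in culture), and rhBMP4 with rhFGF4 for 11 h and rhBMP4 alone for 11 h (both 107 h). Here rhBMP4, rhFGF8 and rhFGF4 are recombinant human proteins, called BMP4, FGF8 and FGF4 below. The culture medium held 10% fetal bovine serum, and the cells grew on feeder fibroblasts from wild-type C57BL/6 embryos treated with mitomycin C to stop them from dividing. Serum and feeders were thus common to the cultured libraries, and no untreated library of 101 h or 107 h was analysed here. Because each condition had 1 library, differences between libraries have no replicate check, no test was possible, and intervals below cover counting error only.

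The intermediate mesoderm lies between the paraxial mesoderm, which gives the somites, and the lateral plate. In the mouse, Osr1 marks this field early, Lhx1, Pax2 and Pax8 mark the forming nephric duct and are needed for it, and Gata3 acts in the duct after them. Eya1, Sall1 and Wt1 act in the metanephric mesenchyme, the tissue that the ureteric bud invades and that gives rise to nephrons. BMP signalling helps to place mesoderm along the medial to lateral axis of the embryo. None of the 8 genes is restricted to the kidney lineage: Pax2, Pax8, Lhx1 and Gata3 are also used in interneurons of the spinal cord, Sall1 and Eya1 in many embryonic tissues, and Wt1 and Osr1 in the coelomic lining and lateral mesoderm.

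The labelled cell type was checked against genes of the tailbud and presomitic mesoderm. T (Brachyury), which marks mesoderm progenitors, stood in the untreated 96 h library at 7.65 CPM (counts per 1000000 counts of the library, after scaling between libraries). Tbx6 was there at 0.585 CPM and Msgn1 at 0.151 CPM, both of them regulators of presomitic mesoderm. At 0 h T was at 83.3 CPM, Tbx6 at 40.7 CPM and Msgn1 at 23.2 CPM. The 2 libraries labelled 5 h lay close to the 0 h library. Of 13778 genes analysed, 0.421% differed at least 2-fold between BMP4 with FGF8 at 5 h and 0 h, and 0.588% between BMP4 at 5 h and 0 h. Against the untreated 96 h library, from which these cultures are labelled as having been continued, 5.55% and 5.58% of genes differed. Of 12 feeder fibroblast markers, 5 were at least 2-fold higher in BMP4 at 5 h than at 0 h, and none was lower. Over all genes, 0.479% were higher. Among the 5, Tnc had 10.65 CPM in BMP4 at 5 h and 6.71 CPM in BMP4 with FGF8, against 1.499 CPM at 0 h. Compared with 96 h, 2 of the 12 were higher and 6 lower in BMP4 at 5 h, against 2.30% and 3.28% of all genes. What these markers say about the labels was not tested. The library labelled BMP4 with FGF4 at 11 h lay closer to 96 h (1.59% of genes) than to 0 h (7.53%). The library labelled BMP4 at 11 h differed from 96 h in 2.87% of genes and from 0 h in 4.01%. Placement of values on genes, described below, favoured the range of the untreated libraries, and some stretches outside it were set aside. The shares of genes that differed may therefore be too low. No second library of any condition was present against which these labels could be checked, so every direction below is that of the libraries as labelled.

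In the deposited table the columns of the 4 growth factor libraries ran longer than the column of gene names and were out of register with it, so each value was placed on its gene by the order of values along the sorted names. All 32 member values in these 4 columns were placed with a posterior probability of at least 0.999967. All 32 fell on the same row when only the 0 h column or only the 96 h column guided the placement. With the 0 h column alone, however, Gata3 did not pass the filters for rows to be used. Column totals ran between 179196459 and 272743104 counts. At these depths 3 counts, the limit that a count of 0 allows, corresponded to 0.0110 to 0.0167 CPM of the column totals, before scaling between libraries.

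Promoter sequence of the genes with the widest range between libraries, Pax2 and Pax8, is shown because both were at least 2-fold lower at 96 h and with FGF4, and higher with BMP4 at 5 h and 11 h than at 96 h. Each window holds the 250 bases before an annotated start, from RefSeq on GRCm38.p6, in the direction of transcription. Capitals mark matches to searched motifs. The first Pax2 window holds GGCGCC at bases -140 and -30 from the start, and the second holds CATAAA, the reverse complement of TTTATG, at base -232.
Pax2, chr19:44756656-44756905 (+): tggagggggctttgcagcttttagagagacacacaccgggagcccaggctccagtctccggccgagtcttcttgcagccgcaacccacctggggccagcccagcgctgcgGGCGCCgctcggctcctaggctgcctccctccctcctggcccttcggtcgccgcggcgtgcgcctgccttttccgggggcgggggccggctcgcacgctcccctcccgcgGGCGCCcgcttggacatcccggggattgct
Pax2, chr19:44755502-44755751 (+): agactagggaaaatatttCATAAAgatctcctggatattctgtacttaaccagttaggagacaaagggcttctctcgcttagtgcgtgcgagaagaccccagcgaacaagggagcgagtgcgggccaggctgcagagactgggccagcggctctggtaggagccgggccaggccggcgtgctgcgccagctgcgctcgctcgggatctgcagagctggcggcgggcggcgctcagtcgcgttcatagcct
Pax8, chr2:24475600-24475849 (-): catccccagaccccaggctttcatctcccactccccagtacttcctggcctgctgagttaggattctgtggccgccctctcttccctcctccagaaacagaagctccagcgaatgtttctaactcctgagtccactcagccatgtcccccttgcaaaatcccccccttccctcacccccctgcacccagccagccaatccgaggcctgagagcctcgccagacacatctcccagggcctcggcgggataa
The letters searched on both strands were TTTATG for CDX factors, GGCGCC for SMAD proteins, CTTTGA for LEF/TCF factors, AGGTGT for T-box factors and AGATAA for GATA factors. No matches overlapped in these windows. The shares of all 32851 mouse promoter windows of this length that hold each motif were 10.8% for TTTATG, 9.59% for GGCGCC, 13.8% for CTTTGA, 11.8% for AGGTGT and 9.99% for AGATAA. Windows were found for 5 of the 8 genes and numbered 9 in all: 3 for Pax2, 3 for Sall1 and 1 each for Pax8, Lhx1 and Gata3. GGCGCC occurred in 4 of the 9 windows (Pax2 in 1, Sall1 in 2, Gata3 in 1), CTTTGA in 1 Sall1 window and TTTATG in 1 Pax2 window. The windows of Pax8 and Lhx1 held none of these letters, and neither did the third Pax2 window (chr19:44746351-44746600), which is not shown. The 9 windows had a GC content of 52.8% to 78.4%, against a median of 52.4% over all windows, and GGCGCC consists of G and C alone. A match describes these letters and is not evidence of binding.

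Pax2, a paired box regulator of the nephric duct and metanephric mesenchyme, lies at chr19:44756045-44837871 on the plus strand (GRCm38). It had 52.7 CPM at 0 h and 0.776 CPM at 96 h untreated, 46.9 CPM in BMP4 with FGF8 at 5 h and 42.2 CPM in BMP4 at 5 h, and 1.65 CPM in BMP4 with FGF4 at 11 h and 25.8 CPM in BMP4 at 11 h. Behind the lowest of these values stood 211 counts. Pax2 was thus high at 0 h and in both 5 h libraries, intermediate in BMP4 at 11 h, and low in the untreated 96 h library and in BMP4 with FGF4. Its highest level was 67.8 times its lowest, the widest range of the 8 genes. In RNA from whole cultures, fewer cells of a type and less RNA per cell cannot be told apart.

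Pax8, the paired box relative that acts with Pax2 in forming the nephric lineage, lies at chr2:24420560-24475599 on the minus strand. It had 6.94 CPM at 0 h and 0.331 CPM at 96 h untreated, 6.20 CPM in BMP4 with FGF8 and 5.59 CPM in BMP4 at 5 h, and 0.427 CPM in BMP4 with FGF4 and 1.67 CPM in BMP4 at 11 h. The order of libraries was that of Pax2, but in BMP4 at 11 h Pax8 stood nearer to its 96 h level. On a linear scale, Pax8 was 20.3% of the way from its 96 h level to its 0 h level in that library, and Pax2 was 48.3% of the way. The Pax8 values of BMP4 with FGF4 at 11 h and of 96 h untreated did not differ beyond counting error. Pax8 shares 367 exon bases with the antisense gene Gm13415, and the strand setting of the authors' counting is not given in the sources used here.

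Lhx1, a LIM homeobox regulator needed for the nephric duct, lies at chr11:84518284-84525535 on the minus strand and was the lowest of the 8 genes per kilobase at 0 h. It had 2.39 CPM at 0 h and 0.728 CPM at 96 h untreated, 2.63 CPM in BMP4 with FGF8 and 1.86 CPM in BMP4 at 5 h, and 1.499 CPM in BMP4 with FGF4 and 3.05 CPM in BMP4 at 11 h. Its highest level was in BMP4 at 11 h, where Pax2 and Pax8 were below their 0 h levels. The values of BMP4 with FGF8 at 5 h and of 0 h did not differ beyond counting error.

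Osr1, a zinc finger factor and early marker of the intermediate mesoderm, lies at chr12:9570116-9581500 on the plus strand. It had 12.9 CPM at 0 h and 5.50 CPM at 96 h untreated, 11.3 CPM in BMP4 with FGF8 and 11.8 CPM in BMP4 at 5 h, and 4.06 CPM in BMP4 with FGF4 and 6.63 CPM in BMP4 at 11 h. The lowest level was in BMP4 with FGF4, below that of 96 h untreated. The values of the 5 h libraries did not differ from each other beyond counting error.

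Sall1, a spalt zinc finger factor needed in the metanephric mesenchyme, lies at chr8:89027235-89044162 on the minus strand and was the most abundant of the 8 genes in every library, per kilobase as well as in CPM. It had 189 CPM at 0 h and 54.04 CPM at 96 h untreated, 163 CPM in BMP4 with FGF8 and 177 CPM in BMP4 at 5 h, and 59.1 CPM in BMP4 with FGF4 and 108 CPM in BMP4 at 11 h. It had the same split as Pax2, with 96 h untreated and BMP4 with FGF4 lowest and BMP4 at 11 h in between, over a range of 3.50-fold.

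Wt1, a zinc finger factor of the metanephric mesenchyme, the podocyte and the coelomic lining, lies at chr2:105126529-105173616 on the plus strand. It had 12.3 CPM at 0 h and 6.12 CPM at 96 h untreated, 10.5 CPM in BMP4 with FGF8 and 9.30 CPM in BMP4 at 5 h, and 7.11 CPM in BMP4 with FGF4 and 6.41 CPM in BMP4 at 11 h. Its range was 2.01-fold, and the values of BMP4 at 11 h and of 96 h untreated did not differ beyond counting error.

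Gata3, a GATA zinc finger factor of the nephric duct, lies at chr2:9857078-9890034 on the minus strand. It had 5.83 CPM at 0 h and 4.61 CPM at 96 h untreated, 6.19 CPM in BMP4 with FGF8 and 5.203 CPM in BMP4 at 5 h, and 5.65 CPM in BMP4 with FGF4 and 10.3 CPM in BMP4 at 11 h. One library stood apart: BMP4 at 11 h was above the other 5, which lay between 4.61 and 6.19 CPM. The 0 h value did not differ beyond counting error from those of BMP4 with FGF8 at 5 h and of BMP4 with FGF4 at 11 h. Gata3 shares 155 exon bases with the antisense gene Gm13256 and 77 with 9230102O04Rik on its own strand, and 9230102O04Rik stood at 1.21 CPM in BMP4 with FGF4 and 2.60 CPM in BMP4 at 11 h.

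Eya1, a transcriptional coactivator and phosphatase of the metanephric mesenchyme, lies at chr1:14168954-14310235 on the minus strand and varied least. It had 22.04 CPM at 0 h and 16.2 CPM at 96 h untreated, 21.001 CPM in BMP4 with FGF8 and 21.3 CPM in BMP4 at 5 h, and 15.8 CPM in BMP4 with FGF4 and 15.9 CPM in BMP4 at 11 h. The values fell into a higher set of 3 libraries (0 h and both 5 h libraries) and a lower set of 3, and neighbours within each set did not differ beyond counting error. Its range was 1.40-fold.

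**Figure D1:**
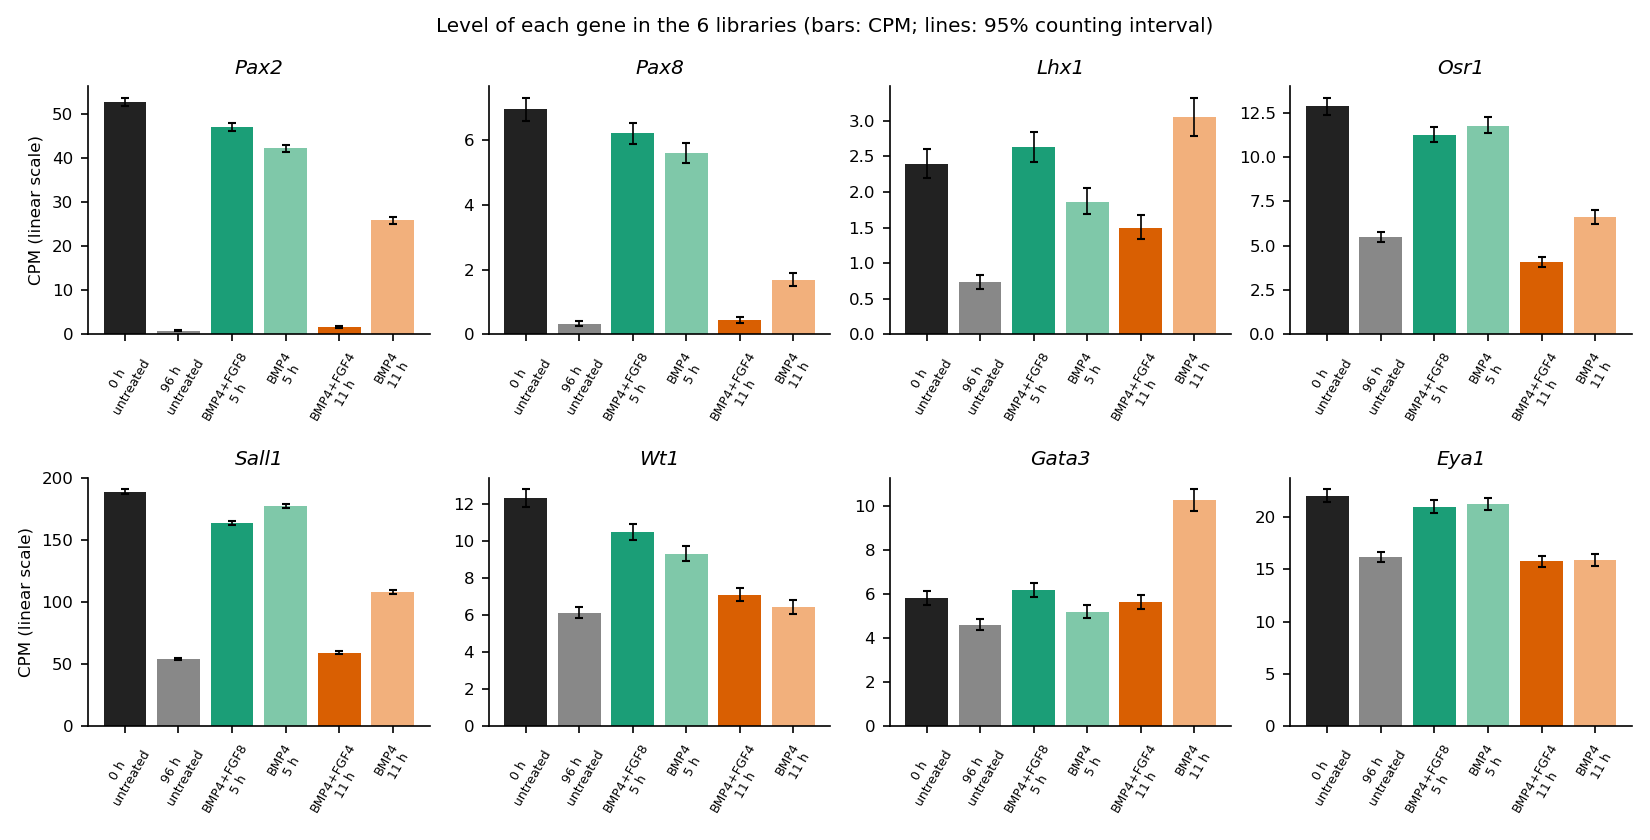
Each panel plots 1 gene, with 1 bar per library on a linear CPM axis that starts at 0 and a line for the 95% counting interval of that library. Pax2 and Pax8 are near 0 at 96 h untreated and in BMP4 with FGF4 at 11 h, Gata3 and Lhx1 are highest in BMP4 at 11 h, and Eya1 varies over 1.40-fold.

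Levels of different genes were compared per kilobase of merged exon length. At 0 h the order was Sall1 with 35.9 CPM per kb, Pax2 with 9.73, Osr1 with 6.22, Eya1 with 2.82, Wt1 with 1.99, Gata3 with 1.47, Pax8 with 1.15 and Lhx1 with 0.588 CPM per kb. At 96 h untreated Pax2 had 0.144 CPM per kb and lay below Lhx1, with 0.179 CPM per kb, and Pax8, with 0.0546 CPM per kb, was the lowest of the 8. In BMP4 at 11 h Pax2 was again the second highest, with 4.77 CPM per kb, after Sall1 with 20.5 CPM per kb.

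The first comparison asked how the 8 genes differed after 96 h in culture without added growth factor. Between the untreated 96 h library and the 0 h library, 5 of the 8 genes were at least 2-fold lower at 96 h (Pax2, Pax8, Lhx1, Osr1 and Sall1) and none was at least 2-fold higher. Of all 13778 genes analysed, 2.29% were lower by this rule and 3.88% were higher. A gene was counted when its log2 ratio, taken after adding 0.5 CPM to both values, was at least 1 in size and the 95% counting interval of the ratio excluded 1. Pax2 had 0.776 CPM at 96 h and 52.7 CPM at 0 h, which is 67.8-fold lower with a counting interval of 59.2 to 78.1 and a log2 ratio of -5.38. No other gene analysed had a lower log2 ratio in this comparison. Pax8 was 21.0-fold lower at 96 h than at 0 h (counting interval 16.9 to 26.2), with a log2 ratio of -3.16. Sall1 was 3.50-fold lower, Lhx1 3.29-fold lower and Osr1 2.33-fold lower at 96 h. Wt1 was 2.01-fold lower, but with 0.5 CPM added its log2 ratio was -0.95. Eya1 had a log2 ratio of -0.43 and Gata3 of -0.31, short of the 2-fold rule. The median log2 ratio was -1.19 over the 8 genes and 0.00 over all genes. Of the tailbud and presomitic markers analysed, 10 of 11 were also at least 2-fold lower at 96 h.

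Between BMP4 at 5 h and the untreated 96 h library, 4 of the 8 genes were at least 2-fold higher with BMP4 (Pax2, Pax8, Sall1 and Osr1) and none was lower. Over all genes, 2.30% were higher and 3.28% lower. Pax2 had 42.2 CPM in BMP4 at 5 h and 0.776 CPM at 96 h, a ratio of 54.3 (counting interval 47.4 to 62.6), and its log2 ratio of 5.06 was exceeded by that of 1 other gene. Pax8 had a ratio of 16.9 (13.6 to 21.1), Sall1 of 3.28 (3.22 to 3.34) and Osr1 of 2.14 (2.01 to 2.28). Lhx1 had a ratio of 2.56, but with 0.5 CPM added its log2 ratio was 0.94. The log2 ratios of Wt1 (0.57), Eya1 (0.38) and Gata3 (0.16) were below the 2-fold rule. The median log2 ratio was 0.99 over the 8 genes and -0.01 over all genes. This comparison shares the 96 h library with the one before it and with the next.

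Set against the 0 h library, BMP4 at 5 h had none of the 8 genes at least 2-fold higher or lower, where 0.479% of all genes were higher and 0.109% lower. The 8 log2 ratios lay between -0.39 for Wt1 and -0.05 for Eya1, all below 0, and the counting interval of Eya1 held a ratio of 1. Pax2 had 42.2 CPM in BMP4 at 5 h and 52.7 CPM at 0 h, a log2 ratio of -0.32. The median was -0.22 over the 8 genes and -0.01 over all genes.

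Between BMP4 at 11 h and the untreated 96 h library, 4 of the 8 genes were at least 2-fold higher with BMP4 (Pax2, Pax8, Lhx1 and Gata3) and none was lower. Over all genes, 2.59% were higher and 0.276% lower. Pax2 had 25.8 CPM in BMP4 at 11 h and 0.776 CPM at 96 h, a ratio of 33.3 (counting interval 29.0 to 38.4), and no gene analysed had a higher log2 ratio in this comparison. Pax8 had a ratio of 5.06 (3.98 to 6.48), Lhx1 of 4.18 (3.54 to 4.95) and Gata3 of 2.23 (2.07 to 2.403). Sall1, at 108 CPM in BMP4 at 11 h and 54.04 CPM at 96 h, had a log2 ratio of 0.99, just short of the 2-fold limit. Osr1 had a log2 ratio of 0.25, Wt1 of 0.06 and Eya1 of -0.03, and the counting intervals of Wt1 and Eya1 held a ratio of 1. The median log2 ratio was 1.03 over the 8 genes and -0.02 over all genes.

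The BMP4 libraries of 11 h and 5 h differed in time in BMP4 and in culture. Pax8 was the only one of the 8 genes past 2-fold, with 1.67 CPM at 11 h and 5.59 CPM at 5 h, 3.34-fold lower at 11 h (counting interval 2.93 to 3.81). None was at least 2-fold higher. Over all genes, 0.319% were lower at 11 h and 2.65% higher, and 6 genes had a lower log2 ratio than Pax8. The genes did not share a direction: the log2 ratios of Osr1 (-0.78), Sall1 (-0.71), Pax2 (-0.70), Wt1 (-0.50) and Eya1 (-0.41) were negative, and those of Gata3 (0.92) and Lhx1 (0.59) were positive. The median was -0.60 over the 8 genes and -0.01 over all genes.

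Between BMP4 with FGF8 and BMP4 alone at 5 h, none of the 8 genes differed by 2-fold or more in either direction. Over all genes, 0.189% were higher and 0.0653% lower with FGF8. Lhx1 was the farthest apart, with 2.63 CPM in BMP4 with FGF8 and 1.86 CPM in BMP4 alone, a ratio of 1.41 (counting interval 1.24 to 1.60). The log2 ratio of Lhx1 was 0.40, and 113 of the genes analysed had a higher one. Pax2 had a ratio of 1.11 (1.08 to 1.14) and Sall1 of 0.922 (0.909 to 0.935). The counting intervals of Osr1 and Eya1 held a ratio of 1. The median log2 ratio was 0.15 over the 8 genes and 0.01 over all genes.

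Between BMP4 with FGF4 and BMP4 alone at 11 h, 2 of the 8 genes, Pax2 and Pax8, were at least 2-fold lower with FGF4 and none was higher. Over all genes, 0.653% were lower and 1.25% higher with FGF4. Pax2 had 1.65 CPM in BMP4 with FGF4 and 25.8 CPM in BMP4 alone, 15.7-fold lower with FGF4 (counting interval 14.1 to 17.5), and no gene analysed had a lower log2 ratio. Pax8 was 3.92-fold lower with FGF4 (3.09 to 5.02). Lhx1 was 2.03-fold lower, with a log2 ratio of -0.83 after 0.5 CPM was added. Sall1 (-0.86), Gata3 (-0.81) and Osr1 (-0.65) had log2 ratios short of 2-fold, and Wt1 (0.14) and Eya1 (-0.01) lay near 0. The median log2 ratio was -0.82 over the 8 genes and -0.03 over all genes. In the same comparison 9 of 11 tailbud and presomitic markers were at least 2-fold lower with FGF4. At least 2-fold higher were 8 of 13 endothelial, 9 of 12 feeder fibroblast, 4 of 7 mesothelial and 2 of 14 lateral plate markers. The part of these cell types in the levels of the 8 genes was not tested here. FGF8 and FGF4 were given for different times, so their libraries were not compared with each other.

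**Figure D2:**
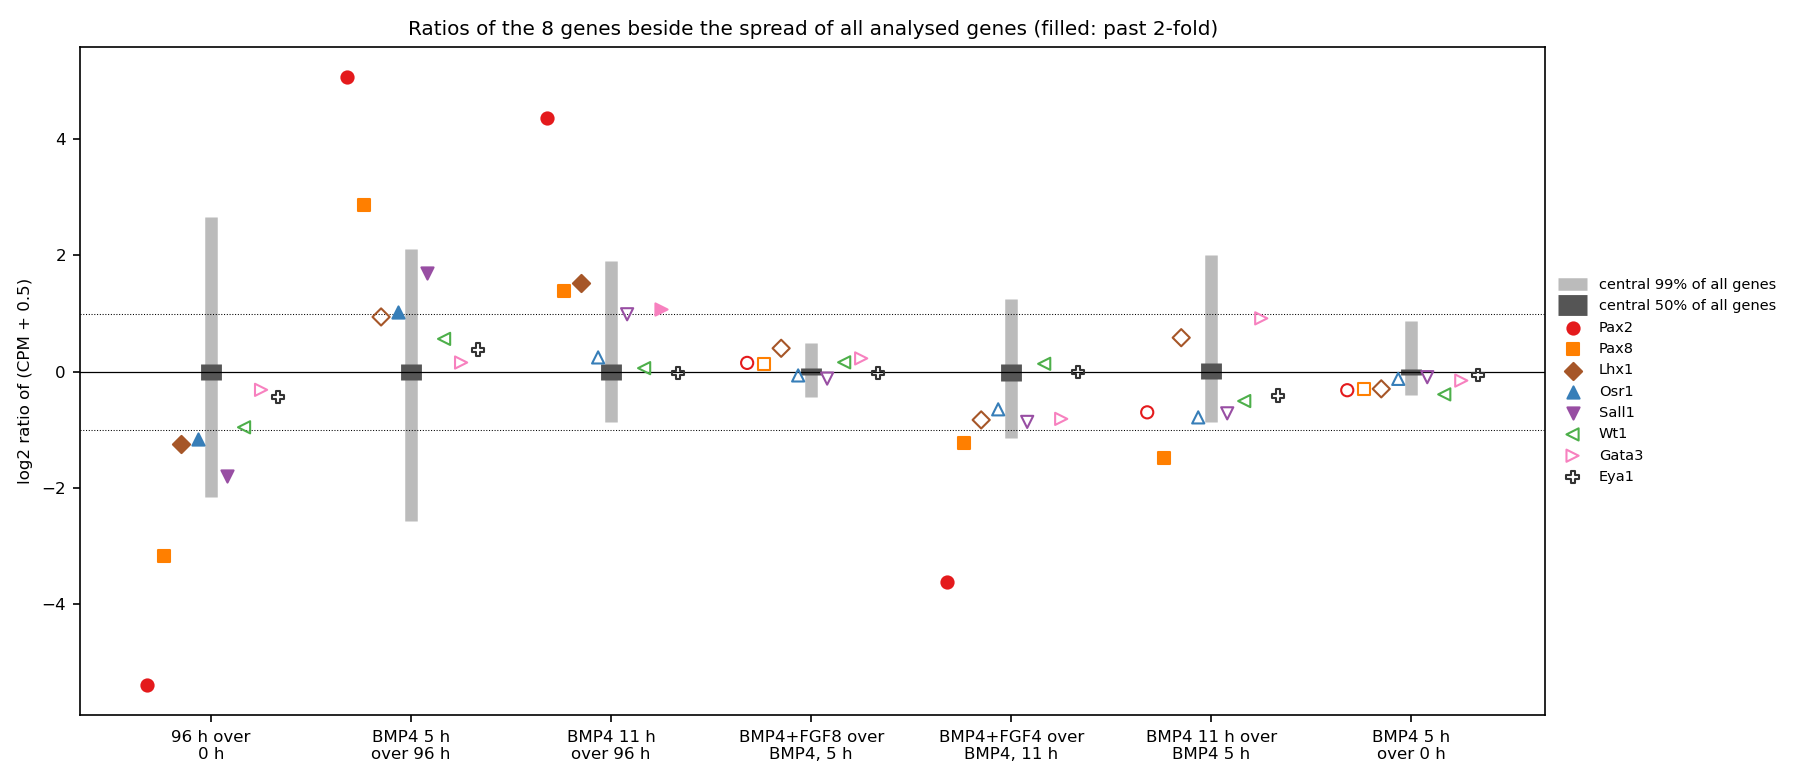
For each of the 7 comparisons the log2 ratio of (CPM + 0.5) is plotted for the 8 genes, filled where past 2-fold (dotted lines), beside a dark bar for the central 50% and a light bar for the central 99% of all 13778 genes. Pax2 lies outside the light bar in the comparisons of 96 h with 0 h, of BMP4 at 5 h and at 11 h with 96 h, and of BMP4 with FGF4 with BMP4 alone.

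Genes that act with the 8 in kidney development were followed as 5 lists. As background, 2.29% of all genes were at least 2-fold lower at 96 h than at 0 h and 3.88% were higher. The first list held relatives and partners of Eya1 and Pax2, among them the Eya and Dach genes. All 14 were analysed, and 3 were at least 2-fold lower at 96 h than at 0 h. These were the Hox11 genes Hoxa11, Hoxc11 and Hoxd11, which pattern the posterior body axis and are required together in the metanephric mesenchyme. Hoxd11 had 62.9 CPM at 0 h and 3.81 CPM at 96 h untreated, 52.2 CPM in BMP4 with FGF8 and 50.3 CPM in BMP4 at 5 h, and 5.77 CPM in BMP4 with FGF4 and 24.9 CPM in BMP4 at 11 h. The same 3 genes were at least 2-fold higher in BMP4 at 5 h and at 11 h than at 96 h, and lower in BMP4 with FGF4 than in BMP4 alone. The shares of all genes were 2.30% higher at 5 h, 2.59% higher at 11 h and 0.653% lower with FGF4. No Eya or Dach gene of the list passed 2-fold in any of the 7 comparisons. The median log2 ratio of this list at 96 h over 0 h was -0.03.

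Of 16 genes of the nephric duct and ureteric bud, 13 were analysed. At 96 h 6 of them were at least 2-fold lower than at 0 h and 1 was higher. The shares of all genes were 2.29% lower and 3.88% higher. The median log2 ratio was -0.89 over the list and -0.003 over all genes. Etv4 and Etv5, ETS factors downstream of Ret and of FGF signalling, were among those lower at 96 h. Etv4 had 8.31 CPM at 96 h and 37.2 CPM at 0 h, and Etv5 had 21.4 CPM at 96 h and 61.7 CPM at 0 h. Gdnf, the ligand of the Ret receptor, had 1.14 CPM at 96 h and 4.28 CPM at 0 h. Ret itself lay between 12.5 and 14.7 CPM in the 6 libraries. In BMP4 at 5 h 5 of the 13 were at least 2-fold higher than at 96 h, against 2.30% of all genes. None of the 13 was lower. In BMP4 at 11 h Etv4 was the only one past 2-fold against 96 h, where 2.59% of all genes were higher. With FGF4 it was the only one past 2-fold against BMP4 alone, with 9.53 CPM with FGF4 and 20.6 CPM without. In that comparison 0.653% of all genes were lower.

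Of 15 genes of the metanephric mesenchyme and nephron progenitors, 13 were analysed. At 96 h 1 was at least 2-fold lower and 1 higher than at 0 h, against 2.29% and 3.88% of all genes. Cited1, a transcriptional coregulator of nephron progenitors, had 5.70 CPM at 96 h and 28.9 CPM at 0 h. Fgf10, a growth factor ligand, had 9.28 CPM at 96 h and 3.20 CPM at 0 h. Cited1 was also the gene of this list that was higher in BMP4 at 11 h (16.3 CPM, against 5.70 CPM at 96 h) and lower with FGF4 (6.63 CPM, against 16.3 CPM in BMP4 alone). The shares of all genes were 2.59% higher at 11 h and 0.653% lower with FGF4. Of 16 genes of the nephron epithelium and podocyte, 11 were analysed, and at 96 h 2 were at least 2-fold higher (Podxl and Synpo) and 2 lower (Jag1 and Cdh1). Podxl, a surface sialomucin of podocytes and endothelium, had 123 CPM at 96 h and 51.99 CPM at 0 h. Of 8 genes of the kidney stroma, all were analysed, and 1, Pbx3, was past 2-fold in 1 comparison, with 31.4 CPM at 96 h and 15.4 CPM at 0 h.

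**Figure D3:**
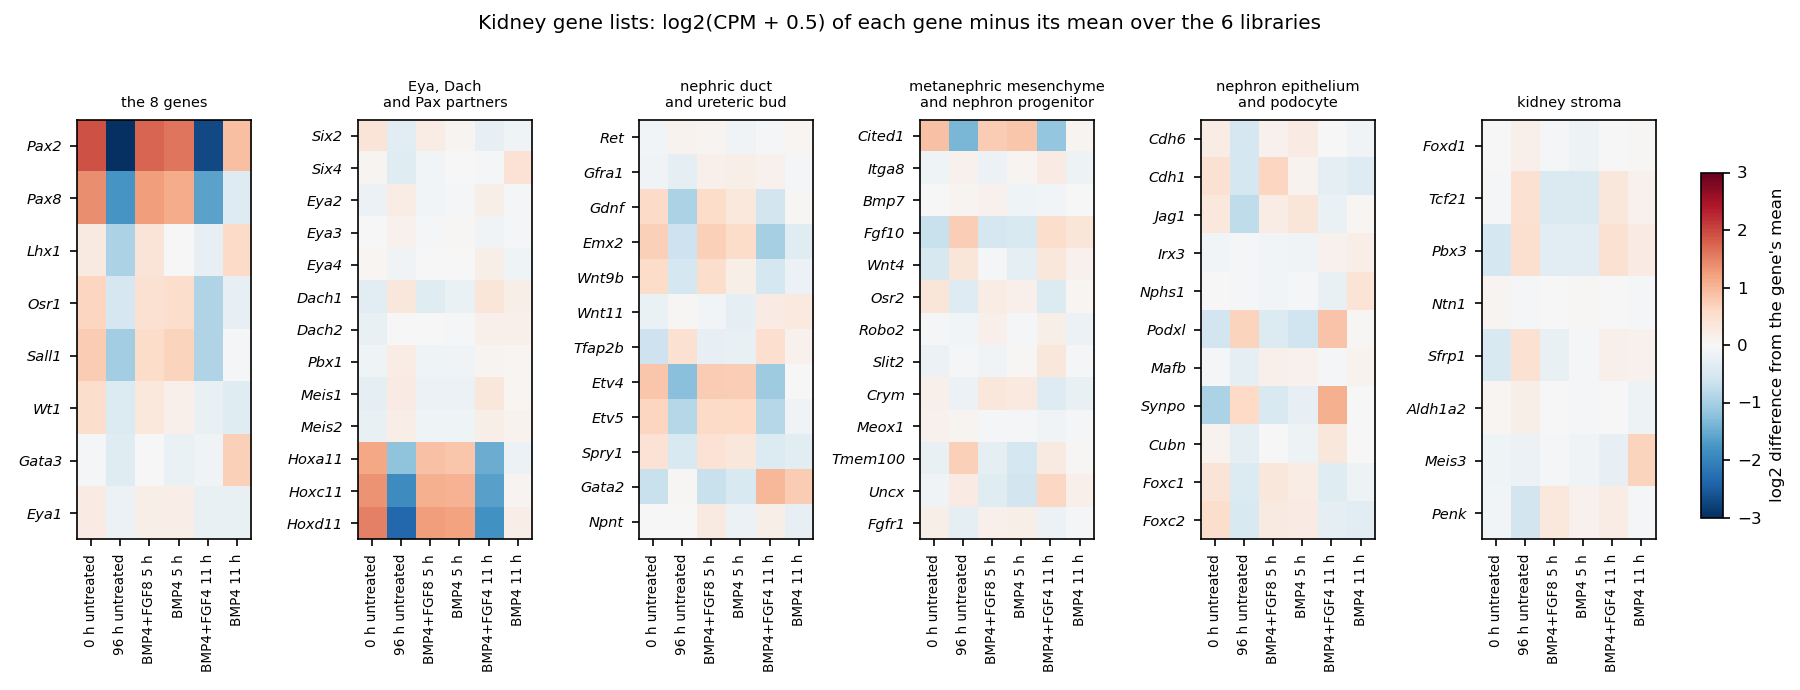
Each row is a gene of the 8 or of a kidney list (not every list gene is shown) and each column a library; the colour gives log2(CPM + 0.5) minus the mean of that gene over the 6 libraries, red above and blue below. Pax2, Pax8, Hoxa11, Hoxc11, Hoxd11, Etv4 and Cited1 are blue at 96 h untreated and in BMP4 with FGF4 at 11 h, and kidney stroma genes stay nearer to their means.

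Relatives of the 8 genes in their own families were listed to see whether they had like levels. Of 20 such genes 18 were analysed, and 6 were at least 2-fold higher and 2 lower at 96 h than at 0 h. The shares of all genes were 3.88% higher and 2.29% lower. Sall4, a spalt factor of pluripotent and early mesoderm cells, had 47.6 CPM at 96 h and 122 CPM at 0 h, and Sall3 had 15.3 CPM at 96 h and 42.1 CPM at 0 h. Sall2 had 51.0 CPM at 96 h and 56.2 CPM at 0 h. Pax1, a paired box factor of the sclerotome, ran opposite to Pax2 and Pax8 between the untreated libraries, with 26.2 CPM at 96 h and 5.06 CPM at 0 h. Of the 5 other GATA genes listed, Gata1, Gata4, Gata5 and Gata6 were at least 2-fold higher at 96 h, and Gata2, with 2.17 CPM at 96 h and 1.16 CPM at 0 h, did not pass the rule. Gata4, of lateral plate and endoderm, had 10.9 CPM at 96 h and 0.475 CPM at 0 h, and Gata6 had 22.3 CPM at 96 h and 2.998 CPM at 0 h. With FGF4 and BMP4 at 11 h Gata4 had 14.4 CPM, against 3.74 CPM in BMP4 alone. Egr1, an immediate early factor with zinc fingers like those of Wt1, had 39.7 CPM in BMP4 at 5 h and 15.7 CPM at 0 h. It was the relative past 2-fold in that comparison, where 0.479% of all genes were higher.

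For each of the 8 genes the most similar patterns over the 6 libraries were sought among 9544 genes, by the root mean square difference of centred log2(CPM + 0.5) profiles; a smaller value means more alike. Nearest to Pax2 were Msgn1 (0.38) and Tbx6 (0.42), both presomitic mesoderm factors, and Gad1 (0.55), an enzyme of GABA synthesis. Gad1 had 0.269 CPM at 96 h and 13.7 CPM at 0 h. Gad2, the other gene for that enzyme activity, was at or under 0.0557 CPM in all 6 libraries. Nearest to Pax8 were Hes3 (0.14) and Nkx1-2 (0.14), both expressed in the caudal embryo, and Hoxa11os (0.20). Foxc2, a forkhead factor of paraxial and intermediate mesoderm, was nearest to Wt1 (0.05), followed by Tcf15 (0.10), a regulator of somites, and Amph (0.11). Nearest to Sall1 were Fabp7 (0.07), Il17rd (0.07) and Naaa (0.08), and to Osr1 Myo5b (0.09), Lhpp (0.10) and Smug1 (0.11). Meis3, a homeobox gene, was nearest to Gata3 (0.11), before Klf10 (0.14) and Tcte3 (0.15). Nearest to Lhx1 were Mocs1 (0.12), Ddit4 (0.17) and Dusp4 (0.19), and to Eya1 Snx10 (0.02), Sema4b (0.02) and Ric3 (0.03). Among the 8 themselves Wt1 and Eya1 were the most alike (0.17) and Pax2 and Gata3 the least (2.11). These distances describe 6 libraries and say nothing of shared function.

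Markers of other cell types differed between the same libraries. Summed over 11 placed genes of 15 listed, tailbud and presomitic markers stood at 452 CPM at 0 h, 49.8 CPM at 96 h untreated, 424 CPM in BMP4 with FGF8 and 426 CPM in BMP4 at 5 h, and 78.0 CPM in BMP4 with FGF4 and 241 CPM in BMP4 at 11 h. The libraries ranked as for Pax2, except that the 5 h libraries changed places. Endothelial markers (13 of 14) ran the other way, with 127.7 CPM at 96 h untreated and 18.6 CPM at 0 h, and with 180.4 CPM in BMP4 with FGF4 and 64.9 CPM in BMP4 at 11 h. Red blood cell markers (10 of 12) summed to 138.5 CPM at 0 h, 3218 CPM at 96 h untreated, 233 CPM in BMP4 with FGF8 and 137 CPM in BMP4 at 5 h, and 2101 CPM in BMP4 with FGF4 and 3042 CPM in BMP4 at 11 h, with Hemgn at 0 counts in BMP4 at 5 h. No other marker was at 0. Tfrc, the transferrin receptor, which many dividing cells express, gave 117 to 129 CPM of each sum. Without it the other 9 genes summed to 15.5 CPM at 0 h, 3089 CPM at 96 h untreated, 108 CPM in BMP4 with FGF8 and 20.6 CPM in BMP4 at 5 h, and 1975 CPM in BMP4 with FGF4 and 2915 CPM in BMP4 at 11 h. Between BMP4 with FGF8 and BMP4 alone at 5 h, 5 of the 10 red blood cell markers were at least 2-fold higher with FGF8. The share of all genes higher with FGF8 was 0.189%. Lateral plate markers (15 of 15) summed to between 110.4 and 276.8 CPM and mesothelial markers (9 of 10) to between 22.1 and 64.2 CPM. Feeder fibroblast markers (13 of 14) summed to between 706 CPM at 0 h and 1855 CPM in BMP4 with FGF4. Fn1 alone gave 522 CPM of the feeder sum at 0 h and 572 CPM of it in BMP4 with FGF4. The range of the other feeder markers was therefore wider than that of the sum. Neural tube markers (14 of 20) lay between 90.8 and 130.2 CPM, and surface and otic epithelium markers (10 of 12) between 67.5 and 91.6 CPM. The part of these cell types in the levels of the 8 genes was not tested.

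**Figure D4:**
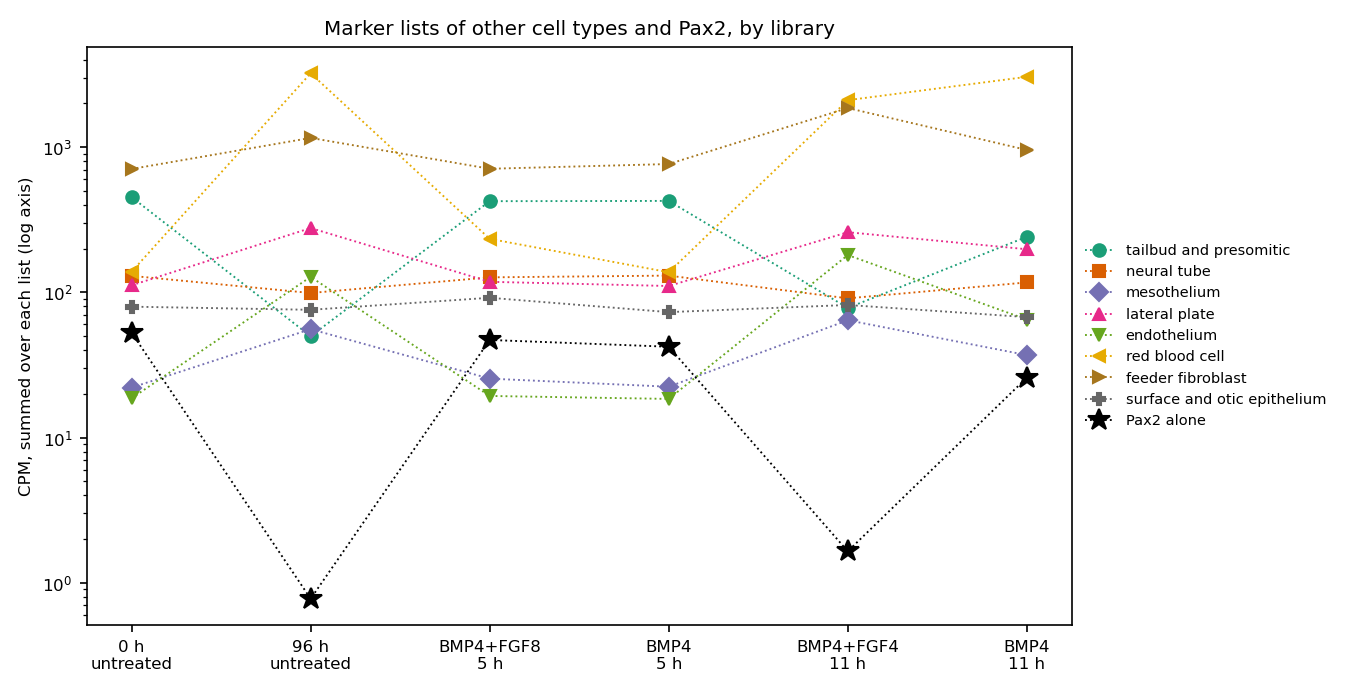
The CPM summed over each marker list is plotted for the 6 libraries on a log axis, beside the CPM of Pax2 alone (stars); dotted lines join the points of a list. Tailbud and presomitic markers are lowest at 96 h untreated (49.8 CPM) and in BMP4 with FGF4 at 11 h (78.0 CPM), where Pax2 is lowest too, and endothelial markers are highest there.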

How the data were processed

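Libraries were prepared from total RNA with a stranded kit, per the labels. Whole-number counts for each gene, not normalized, are what the authors deposited. HTSeq, STAR 2.4.0e, DESeq, cutadapt and the build mm10 appear in the submitters' processing notes, with no role given. How multiply mapped or antisense reads were counted is not given in the sources used here.

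The 4 growth factor columns held 19415 to 19826 values for 19342 names and were out of register. Read row by row, their counts on a log2 scale correlated with the 0 h column at 0.0458 to 0.132. Names and each column were therefore aligned in order by a banded pair hidden Markov model (Python 3.11.15, numba 0.67.0), which was tested on simulated data. Rows with a posterior of at least 0.95 in all 4 columns and a name that occurs once were used, 17085 in all. Stretches in which neighbouring values looked exchanged (more than 2-fold outside the untreated range on opposite sides, within 12 rows) were set aside, 842 rows over the 4 columns and none of the 8 genes; this step was chosen after seeing the data, and single misplaced rows may remain. Ranks of a gene and shares of all genes hold among the rows used.

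CPM is the count per 1000000 counts of the whole column, scaled by TMM factors (edgeR 4.0.16). Genes with at least 1 CPM in 1 library or more, 13778, were analysed. Ratios carry exact 95% counting intervals (Clopper-Pearson), which cover counting error only and removed no gene that passed 2-fold. In the 6 columns 65.4% to 70.9% of counts from 1 to 20 were even, so the counted units may not be single fragments and the intervals may be too narrow. Coordinates and merged exon lengths come from GENCODE M21 (GRCm38, the build called mm10).

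The 8 genes, the gene lists and the comparisons were chosen with earlier results of these data known. Apart from the 8, genes were named by a rule: list members past 2-fold with a mean of at least 1 CPM over the pair of libraries, up to 4 per list and comparison, relatives by level, and the 3 nearest patterns among genes of at least 5 CPM. Ret, Gad2, Gata5, Hemgn, Tfrc and Fn1 were named outside it, after their values were seen. The 0 h and 96 h values of T and Gata2 were also given after being seen, since these genes met the rule in other comparisons. List counts cover all listed genes, some of which are not reported here by name. Alternatives were other scalings (DESeq2 1.42.0 size factors and total counts), other added CPM, other minimum levels and other placements.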

Additional observations from a re-analysis of the deposited data

How the results depend on the processing

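All counts below are of calls past 2-fold. Over 8 genes and 7 comparisons, 56 decisions were made per setting. Adding 2 CPM in place of 0.5 CPM lost 7 calls: Lhx1 and Osr1 at 96 h over 0 h, Osr1 in BMP4 at 5 h, Pax8, Lhx1 and Gata3 in BMP4 at 11 h over 96 h, and Pax8 with FGF4. It left 3 of the 8 genes called at 96 h over 0 h, 1 in BMP4 at 11 h over 96 h and 1 with FGF4. Adding 0.1 CPM gained Lhx1 in BMP4 at 5 h over 96 h. A minimum of 5 CPM dropped Lhx1 and its 2 calls, and placement on the 0 h column alone dropped Gata3 and its 1 call. The other settings tried kept all 56 decisions, among them counts halved and the exchanged stretches kept, both chosen after seeing the data. No call was reversed. With total counts Sall1 in BMP4 at 11 h over 96 h had a log2 ratio of 0.91 and Eya1 with FGF4 of 0.13.

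Counts over all genes moved more. With 2 CPM added they were 463 at 96 h over 0 h, 436 in BMP4 at 5 h and 192 in BMP4 at 11 h over 96 h, 18 with FGF8, 113 with FGF4, 159 at 11 h over 5 h and 30 in BMP4 at 5 h over 0 h, against 850, 769, 395, 35, 262, 409 and 81. With a minimum of 5 CPM, which tests fewer genes, the counts in the same order but without FGF4 were 539, 484, 237, 21, 230 and 44. With the exchanged stretches kept, the count with FGF8 was 62. Summed over the comparisons, the nephric duct list had 16 calls, 8 with 2 CPM added and 10 at a minimum of 5 CPM. The kidney stroma list had 1 call, 0 with 2 CPM added and 2 with 0.1 CPM added. The relatives had 26 calls, and 17 when placed on the 0 h column alone, where the cause was not tested. No paired analysis was possible because each condition had 1 library, and no library could be left out for the same reason. The lowest value of the 8 genes rests on 90 counts. At low levels, such as those of Pax8 and Lhx1, some comparisons depended on counting error or on the CPM added. The lack of replicates limits all 8 genes.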
